A study of Homo sapiens with 12 samples.

Results

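The 36 genes described here encode the phosphoinositide 3-kinases (PI3K), the AKT kinases, the mTOR complexes and the proteins that feed, hold back or receive signals from them. They form a list of gene symbols drawn up by pathway membership, with earlier results of these data known, and all 36 were found among the 58191 rows of the expression table. RNA sequencing measured gene expression in human leukaemia cells in 4 groups of 3 libraries each: K562 with EVI1 overexpression, K562 control cells labelled as wild type, EVI1 overexpression under the label MOLM14, and the wild type control under that label. The gene MECOM encodes EVI1, a transcription factor with zinc fingers. The study's title names the AKT inhibitor capivasertib and the BCL2 inhibitor venetoclax, but no library carries a drug label, so the libraries compare EVI1 overexpression with control and hold no inhibitor arm. K562 is a line from a chronic myeloid leukaemia in blast crisis, and all its libraries share the BCR-ABL1 fusion kinase, which itself is known to activate PI3K. The vector, the promoter that drives EVI1 and whether the cells were clones are not given in the sources used here, nor is it said whether replicates were separate cultures, so every p-value measures only the spread between these libraries.

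Class I PI3Ks add a phosphate to a membrane lipid, and each is a dimer of a catalytic and a regulatory subunit that is recruited by activated receptors and their adaptors. The lipid draws PDK1 and AKT to the membrane, where PDK1 and the mTOR complex mTORC2 phosphorylate and switch on AKT. AKT then inactivates GSK3 and the TSC complex, which releases the small GTPase RHEB to activate mTORC1, the complex that drives protein synthesis through the S6 kinases and the translation repressor 4E-BP1. Lipid phosphatases remove the signal and PHLPP phosphatases dephosphorylate AKT. Most of this control acts on proteins, whereas the values below are RNA levels.

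The values are FPKM, fragments per kilobase of transcript and per 1000000 fragments. The libraries summed to between 765285 and 898547 FPKM in K562 and between 599102 and 630579 FPKM under the label MOLM14. Steps between low FPKM values placed the depth at 80.8, 60.8 and 78.5 times 1000000 fragments in the K562 EVI1 libraries and at 38.9, 70.2 and 59.8 times 1000000 in the K562 control libraries. No depth was estimated for the libraries labelled MOLM14. The columns labelled MOLM14 matched the gene names only in the first 5510 rows, which hold 15 of the 36 genes, and the other 21 are described in K562 alone. Markers in these libraries were mixed with respect to their label. GATA1, an erythroid factor, stood between 141 and 150 FPKM in the EVI1 libraries labelled MOLM14 and between 107 and 123 FPKM in their controls, while HOXA9, a gene that is high in leukaemias with KMT2A fusions such as MOLM14, was listed at 0.0245 FPKM in 1 library and at 0 in the other 5. KLF1, another erythroid factor, stood between 55.6 and 63.1 FPKM with EVI1 and between 32.0 and 36.7 FPKM in control. Some genes of monocytic cells, which the label would call for, were present as well, while MPO was at most 0.0628 FPKM. TYROBP stood between 4.88 and 8.11 FPKM with EVI1 and at 20.2 FPKM or more in control. SPI1 stood between 28.9 and 30.2 FPKM with EVI1 and between 40.4 and 48.3 FPKM in control. CD33 stood between 9.82 and 10.7 FPKM with EVI1 and between 33.2 and 36.1 FPKM in control. LYZ stood between 35.3 and 36 FPKM with EVI1 and between 80.1 and 82.3 FPKM in control. CSF3R was at most 0.222 FPKM with EVI1 and between 1.69 and 2.83 FPKM in control. The K562 libraries held these genes too, SPI1 at 17 FPKM or more, CD33 at 24.3 FPKM or more and TYROBP at up to 3.89 FPKM. There LYZ was at most 23.1 FPKM and CSF3R at most 1.17 FPKM. MECOM was at 25.9, 23.9 and 22.1 FPKM in the K562 EVI1 libraries, against 14.6, 11.2 and 10.9 FPKM in K562 control. It was at 17.8, 18.0 and 16.9 FPKM in the EVI1 libraries labelled MOLM14, against 9.66, 9.02 and 8.55 FPKM in their controls, so the groups did not overlap under either label.

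In K562, EVI1 overexpression went with higher RNA for the PI3K catalytic subunits p110β and p110δ, for AKT1, for the phosphatases INPP4B and PHLPP1, for both TSC subunits and for 4E-BP1. It went with lower RNA for the catalytic subunit p110γ, 2 regulatory subunits, the phosphatase SHIP1, RHEB, GSK3A and the S6 kinase RPS6KB2. Activators and inhibitors of the pathway were found on both sides. Of the 36 genes, 30 reached 1 FPKM in at least 3 of the 6 libraries and were tested. Of these, 11 rose, 9 fell and 10 did not pass the threshold, an adjusted p under 0.05 in limma's moderated test with Benjamini-Hochberg adjustment over all genes. The 20 called genes were 66.7% of those tested, and over all 13799 genes 51.9% were called, 28.2% higher and 23.7% lower. The median log2 fold change was -0.01 for the 30 genes and 0.01 for all genes. The groups did not overlap for 22 of the 30 genes (73.3%), against 60.6% of all genes tested. INPP4B and INPP5D passed the filter only through the group in which they were high, so their calls were bound to the filter. Under quantile normalization of the libraries 8 genes rose and 11 fell, in place of 11 and 9. Each fold change is the EVI1 mean minus the control mean of log2(FPKM + 1), on which changes of scarce genes come out too small.

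**Figure D1:**
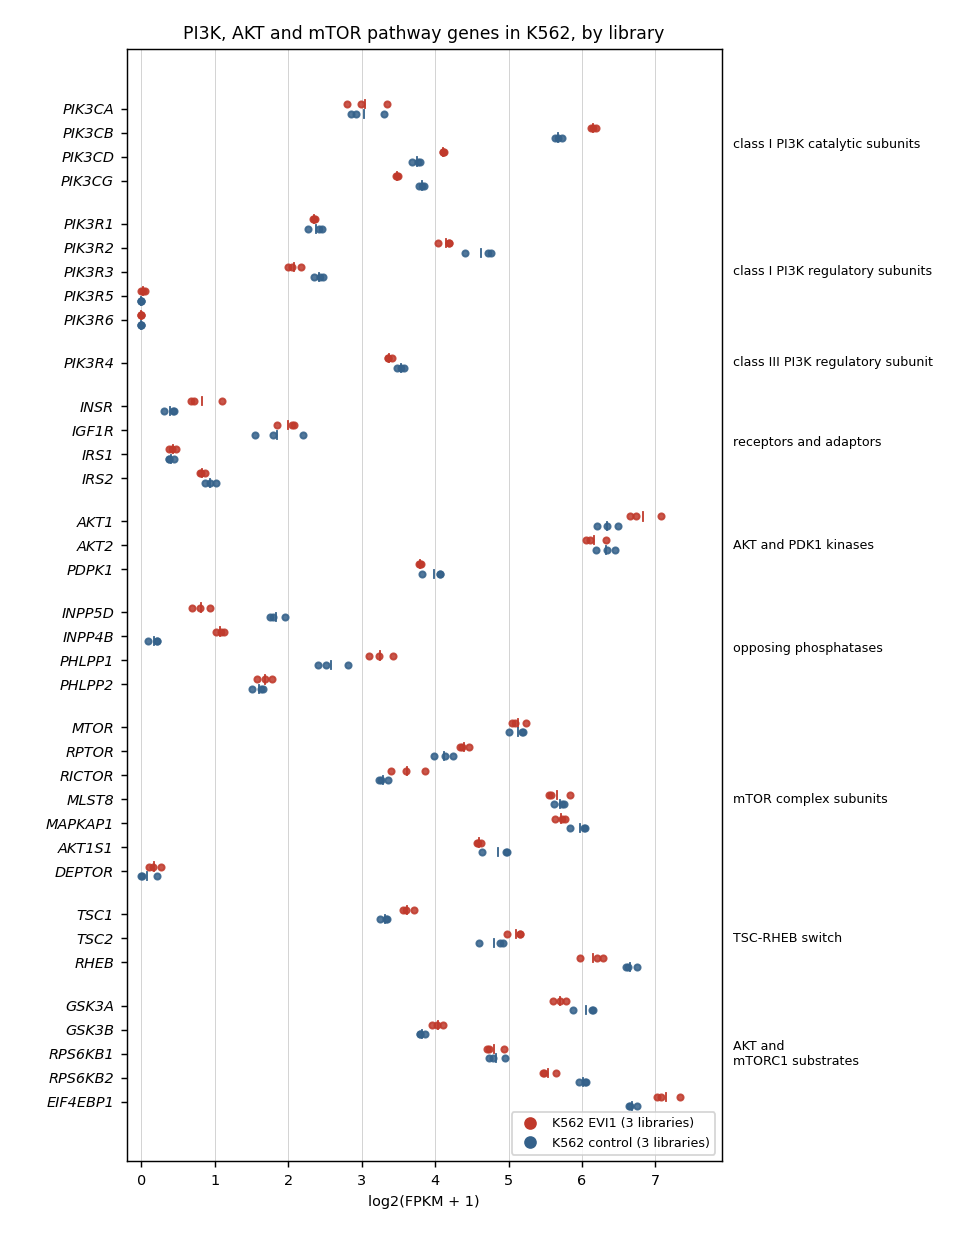
Expression of the 36 pathway genes in K562, on a horizontal axis of log2(FPKM + 1); each point is 1 library, red for the 3 EVI1 libraries and blue for the 3 control libraries, and the short bars are group means. INPP5D and INPP4B show the widest gaps in opposite directions, PIK3CB, RHEB and RPS6KB2 separate at high levels, and MTOR, PIK3CA and RPS6KB1 overlap.

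**Figure D2:**
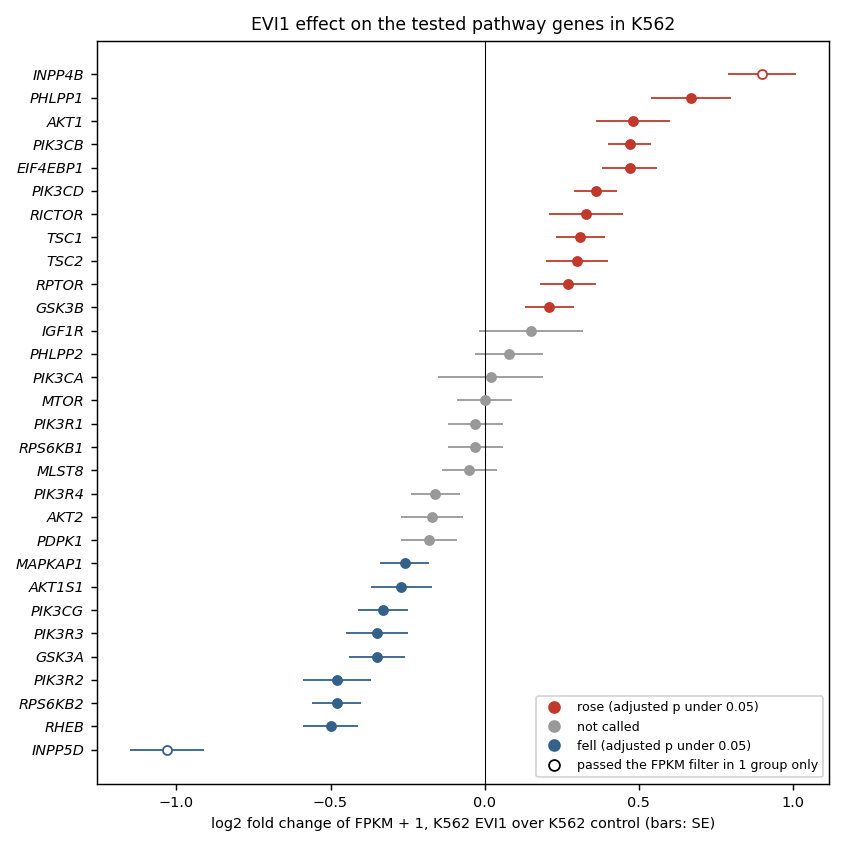
Log2 fold change of FPKM + 1 of the 30 tested genes, K562 EVI1 over K562 control, in order of size, with bars for the standard error. The changes run from 0.90 for INPP4B to -1.03 for INPP5D, and those 2 open points mark genes that passed the FPKM filter in 1 group only.

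Among the catalytic subunits, PIK3CB (p110β, chromosome 3 from 138652699 to 138834938 in GRCh38) was the most expressed per length in both groups. It had 71.9, 69.8 and 68.6 FPKM in the K562 EVI1 libraries, against 48.7, 50.0 and 52.1 FPKM in the control libraries. Every EVI1 library lay above every control library, and the log2 fold change was 0.47 (SE 0.07, adjusted p = 4.8e-04). PIK3CD (p110δ), which is known chiefly from white blood cells, had 16.3, 16.4 and 16.2 FPKM with EVI1, against 11.9, 12.6 and 12.9 FPKM in control (log2 fold change 0.36, SE 0.07, adjusted p = 0.00395). PIK3CG (p110γ), the subunit that responds to G protein-coupled receptors, moved the other way. It had 10.2, 10.3 and 10.1 FPKM with EVI1, against 12.7, 13.2 and 13.4 FPKM in control, again without overlap (log2 fold change -0.33, SE 0.08, adjusted p = 0.0062). PIK3CA (p110α) overlapped fully, with 9.19, 6.94 and 5.98 FPKM in EVI1 libraries and 6.20, 6.58 and 8.88 FPKM in control libraries (log2 fold change 0.02, SE 0.17, adjusted p = 0.922).

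The order of the levels differed between the groups. With EVI1 the levels of PIK3CD, at 16.3 ± 0.110 FPKM, lay above those of PIK3CG, at 10.2 ± 0.115 FPKM, in every library. In control cells the ranges of PIK3CD, at 12.5 ± 0.490 FPKM, and PIK3CG, at 13.1 ± 0.361 FPKM, overlapped (mean ± SD, n = 3 each). Within each control library, however, PIK3CG lay slightly above PIK3CD. The summed FPKM of the 4 catalytic genes was 104 ± 3.37 in EVI1 and 83.1 ± 3.93 in control libraries. PIK3CB made up 67.4% ± 0.573 of that sum with EVI1 and 60.5% ± 0.761 in control. PIK3CG made up 9.81% ± 0.324 with EVI1 and 15.8% ± 0.408 in control, while the share of PIK3CD was 15.7% ± 0.470 with EVI1 and 15.0% ± 0.244 in control. These shares describe the libraries and were not tested.

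The regulatory subunits that pair with p110α, p110β and p110δ were lower or not called. PIK3R2 (p85β), which stabilises the catalytic subunit and binds phosphorylated receptors, had 15.5, 17.3 and 17.2 FPKM with EVI1, against 26.0, 25.3 and 20.2 FPKM in control. The groups did not overlap, although control replicate 3 came close (log2 fold change -0.48, SE 0.11, adjusted p = 0.00586). PIK3R3 (p55γ), a shorter relative, had 3.49, 3.00 and 3.14 FPKM with EVI1, against 4.40, 4.09 and 4.56 FPKM in control (log2 fold change -0.35, SE 0.10, adjusted p = 0.016). PIK3R1 (p85α) stood at 4.10 ± 0.0489 FPKM in EVI1 and 4.22 ± 0.350 FPKM in control libraries, or -0.03 as a log2 fold change (SE 0.09, adjusted p = 0.793). The sum of the 3 genes was 24.0 ± 0.780 FPKM with EVI1 and 32.4 ± 2.82 FPKM in control. Thus the summed RNA of the catalytic genes was higher and that of these regulatory genes lower in EVI1 libraries, without overlap in either sum. The exons of PIK3R2 are shared to 87.2% with a gene on the same strand, AC007192.1, listed at a mean of 0.0255 FPKM, and the call of PIK3R3 was lost without control replicate 1 (adjusted p = 0.0507) or EVI1 replicate 3 (adjusted p = 0.0552).

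PIK3R5 and PIK3R6 encode p101 and p84, the partners of p110γ. PIK3R6 was listed at 0 in all 6 K562 libraries and PIK3R5 at most at 0.0363 FPKM, so neither was tested, while PIK3CG itself stood above 10 FPKM in every library. PIK3R4 encodes VPS15, the partner of the class III PI3K that acts in autophagy and vesicle traffic. It had 9.64, 9.28 and 9.21 FPKM with EVI1, against 10.9, 10.2 and 10.6 FPKM in control, which did not overlap but missed the threshold (log2 fold change -0.16, SE 0.08, adjusted p = 0.12). With quantile normalization PIK3R4 was called lower (log2 fold change -0.25, adjusted p = 0.0226).

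The receptors and adaptors that start the signal in insulin-responsive tissue were scarce. IGF1R, the receptor for insulin-like growth factors, was the only 1 of 4 that could be tested. It stood at 2.99 ± 0.331 FPKM in EVI1 and 2.65 ± 0.845 FPKM in control libraries and overlapped (log2 fold change 0.15, SE 0.17, adjusted p = 0.481). INSR, the insulin receptor, was below the filter at 0.641, 1.14 and 0.604 FPKM with EVI1, against 0.350, 0.238 and 0.362 FPKM in control. Those groups did not overlap, and without the filter the log2 fold change was 0.43 (adjusted p = 0.0668). The adaptors IRS1 and IRS2 stood at 0.342 ± 0.0454 and 0.776 ± 0.0455 FPKM with EVI1 and at 0.321 ± 0.0394 and 0.920 ± 0.0980 FPKM in control.

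AKT1 RNA was higher and AKT2 RNA was not called. AKT1, the most broadly expressed AKT kinase, had 99.9, 134 and 106 FPKM with EVI1, against 80.0, 88.8 and 73.0 FPKM in control, without overlap (log2 fold change 0.48, SE 0.12, adjusted p = 0.0101). AKT2, the form best known from insulin-driven glucose uptake, had 65.6, 79.1 and 67.9 FPKM with EVI1, against 80.2, 86.3 and 72.3 FPKM in control. Its groups overlapped, and the log2 fold change was -0.17 (SE 0.10, adjusted p = 0.18). AKT1 therefore made up 60.3%, 62.9% and 61.0% of the summed FPKM of both genes in the EVI1 libraries and 49.9%, 50.7% and 50.2% in the control libraries. With EVI1 the level of AKT1 lay above that of AKT2 in every library, and in control the 2 levels overlapped. Among the EVI1 libraries, replicate 2 was the highest for both genes. With no filter on low values, where more genes are adjusted for, the adjusted p of AKT1 was 0.0553. PDPK1, which encodes the AKT-activating kinase PDK1, had 13.0, 12.9 and 12.7 FPKM with EVI1, against 15.8, 15.7 and 13.1 FPKM in control (log2 fold change -0.18, SE 0.09, adjusted p = 0.123). Without control replicate 3 it was called lower, with a log2 fold change of -0.27 and an adjusted p of 0.0237. The same held with quantile normalization (log2 fold change -0.25, adjusted p = 0.0379). PDPK1 shares 16.8% of its exon bases with an antisense gene, AC141586.3, listed at 3.70 FPKM, and has a near-identical copy, PDPK2P, so its level is uncertain.

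**Figure D3:**
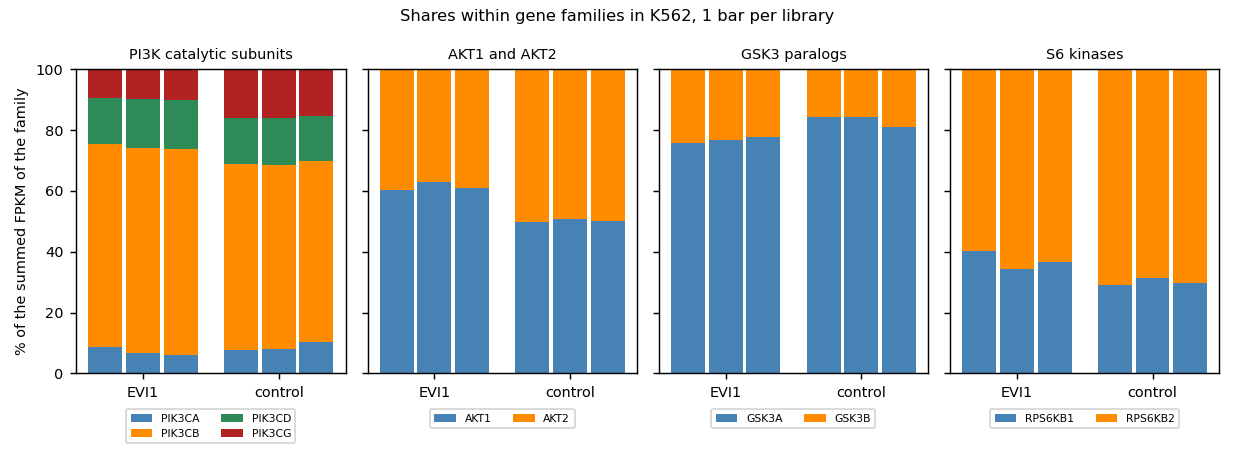
Share of each gene in the summed FPKM of its family, in percent, in K562; each bar is 1 library, the 3 EVI1 libraries on the left and the 3 control libraries on the right of each panel. PIK3CB and AKT1 take larger shares in all 3 EVI1 libraries, and PIK3CG, GSK3A and RPS6KB2 take smaller ones.

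Of the 4 opposing phosphatases, INPP5D fell, INPP4B and PHLPP1 rose, and PHLPP2 was not called. INPP5D (SHIP1, chromosome 2 from 233059967 to 233207903), a blood cell phosphatase that removes the 5-phosphate of the PI3K product, had 0.608, 0.908 and 0.743 FPKM with EVI1, against 2.35, 2.46 and 2.89 FPKM in control. Its log2 fold change was -1.03 (SE 0.12, adjusted p = 1.7e-04), and all EVI1 libraries were below the filter. INPP4B (chromosome 4 from 142023160 to 142847432), which removes the 4-phosphate from the lipid that SHIP1 leaves, showed the reverse. It had 1.12, 1.18 and 1.02 FPKM with EVI1, against 0.163, 0.163 and 0.0662 FPKM in control, where all libraries were below the filter (log2 fold change 0.90, SE 0.11, adjusted p = 2.3e-04). Both genes were thus scarce in 1 of the groups and low in the other, and the size of their change depended on the scale. With a pseudocount of 0.1 it was -1.66 for INPP5D and 2.42 for INPP4B, and under quantile normalization INPP4B had a log2 fold change of 0.47. PHLPP1 (chromosome 18 from 62715450 to 62980433), which dephosphorylates AKT, had 8.40, 9.71 and 7.59 FPKM with EVI1, against 6.01, 4.71 and 4.32 FPKM in control. The groups did not overlap, and the log2 fold change was 0.67 (SE 0.13, adjusted p = 0.003). Its relative PHLPP2 had 2.21, 2.44 and 1.97 FPKM with EVI1 and 2.14, 2.10 and 1.83 FPKM in control, which overlapped (log2 fold change 0.08, SE 0.11, adjusted p = 0.534). PHLPP1 made up 79.5% ± 0.390 of the summed FPKM of the pair with EVI1 and 71.0% ± 2.38 in control. The call of PHLPP1 held when any 1 library was left out, with adjusted p up to 0.0113. INPP5D without any 1 control library, and INPP4B without any 1 EVI1 library, fell below the filter and could not be tested. In the other 3 fits of each gene the calls held, but those fits keep every library of the group in which the gene is high. These calls too were bound to the filter.

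INPP5D, PIK3CD and PIK3CG are genes of white blood cells, and markers of other cell types also moved between the K562 groups. The 13 genes of a T and NK cell list summed to between 78.4 and 87.5 FPKM with EVI1 and between 39.4 and 45.4 FPKM in control, with 4 genes at a mean of 1 FPKM or more in EVI1 libraries and 2 in control. Of them 8 lay above control in every EVI1 library and 2 below, and CD8A was at 0 in every library. CD3D made up most of that sum, with between 57 and 68.2 FPKM with EVI1 and between 35.4 and 40.2 FPKM in control. CD3E, CD3G, CD2 and CD247 stayed under 1 FPKM in every library, although CD3E and CD3G were among the 8 above control. TRAC had between 7.55 and 9.7 FPKM with EVI1 and between 0.29 and 0.885 FPKM in control. PRF1 had between 7.76 and 8.2 FPKM with EVI1 and between 1.66 and 2.11 FPKM in control. For ZAP70 the values were 1.21 to 1.77 FPKM with EVI1 and 0.261 to 0.317 FPKM in control. The 2 below control were CD2 and NKG7. The 6 genes of a stroma list summed to between 31.6 and 36.9 FPKM with EVI1 and between 4.10 and 8.37 FPKM in control. COL1A1, at 17.5 to 23.4 FPKM, and COL1A2, at 11.6 to 12.9 FPKM, made up most of the EVI1 sum. The other stroma genes stayed under 1 FPKM with EVI1. The 14 genes of an erythroid list summed to between 12612 and 15764 FPKM with EVI1 and between 9926 and 10647 FPKM in control. HBE1 carried that difference, with between 6210 and 7502 FPKM with EVI1 and between 3227 and 3528 FPKM in control. Of the 14 genes 4 lay above control in every EVI1 library, and 6, namely HBZ, HBA1, ALAS2, KLF1, TFRC and EPOR, lay below.

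The 16 genes of a monocytic list summed to between 169.5 and 192.5 FPKM with EVI1 and between 152.8 and 178.1 FPKM in control, with 7 genes above control and 4 below in every EVI1 library and HOXA9 at 0 throughout. Below control were LYZ, SPI1, ITGAM and TYROBP. ITGAM had between 0.309 and 0.345 FPKM with EVI1 and between 0.940 and 1.43 FPKM in control, and TYROBP between 0.564 and 1.17 FPKM with EVI1 and between 2.96 and 3.89 FPKM in control. LYZ and SPI1 stood above 10 FPKM in every library. CD33 lay above control, with between 50.2 and 58.5 FPKM with EVI1 and between 24.3 and 25.1 FPKM in control. The 6 genes of an intestinal epithelium list summed to between 24.0 and 31.66 FPKM with EVI1 and between 52.92 and 58.28 FPKM in control, nearly all of it EPCAM, with CDX2 and FABP2 at 0 in every library. The 6 genes of a B cell list summed to between 6.219 and 6.484 FPKM with EVI1 and between 5.529 and 7.287 FPKM in control, with MS4A1 at 0 in every library. In bulk RNA, fewer cells of a type and less RNA per cell cannot be told apart, and the part of these markers in the changes of the pathway genes was not tested.

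The mTOR complexes did not move as a unit. MTOR, the kinase that both complexes share, had 32.2, 36.9 and 32.9 FPKM with EVI1, against 35.4, 35.5 and 31.0 FPKM in control, and overlapped (log2 fold change 0.00, SE 0.09, adjusted p = 0.994). MLST8, the other shared core subunit, stood at 49.6 ± 5.77 FPKM with EVI1 and 51.1 ± 2.71 FPKM in control (log2 fold change -0.05, SE 0.09, adjusted p = 0.695). RPTOR, the scaffold that defines mTORC1, had 19.3, 21.1 and 19.6 FPKM with EVI1, against 16.6, 18.0 and 14.9 FPKM in control (log2 fold change 0.27, SE 0.09, adjusted p = 0.0342). RICTOR, the scaffold that defines mTORC2, had 13.5, 9.51 and 11.1 FPKM with EVI1, against 8.39, 8.59 and 9.28 FPKM in control (log2 fold change 0.33, SE 0.12, adjusted p = 0.0492). Both scaffold genes were above control in every EVI1 library.

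MAPKAP1, which encodes the mTORC2 subunit SIN1, moved against RICTOR. It had 48.7, 51.8 and 53.5 FPKM with EVI1, against 64.2, 64.8 and 56.0 FPKM in control, without overlap (log2 fold change -0.26, SE 0.08, adjusted p = 0.0268). AKT1S1, which encodes PRAS40, an mTORC1 inhibitor that AKT phosphorylates, had 22.9, 22.7 and 23.7 FPKM with EVI1, against 30.1, 30.4 and 24.0 FPKM in control (log2 fold change -0.27, SE 0.10, adjusted p = 0.0491). Control replicate 3 was the lowest control for both, next to the EVI1 libraries. DEPTOR, an inhibitor of both complexes, was below the filter, with at most 0.199 FPKM in any library. All 4 of these calls depended on single libraries. RPTOR lost its call without EVI1 replicate 1, 2 or 3 or control replicate 1 or 3 (adjusted p from 0.0584 to 0.0874), RICTOR without EVI1 replicate 1 or 3 or any 1 control (0.0589 to 0.153), MAPKAP1 without EVI1 replicate 1 or control replicate 1 or 2 (0.09 to 0.104), and AKT1S1 without any 1 EVI1 library or control replicate 1 or 2 (0.0882 to 0.162).

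At the switch between AKT and mTORC1, both inhibitory subunits were higher and the GTPase they inactivate was lower. TSC1 (hamartin), which stabilises the complex, had 11.1, 12.1 and 10.8 FPKM with EVI1, against 9.08, 9.16 and 8.55 FPKM in control (log2 fold change 0.31, SE 0.08, adjusted p = 0.0138). TSC2 (tuberin), the subunit that turns RHEB off, had 30.6, 34.5 and 34.6 FPKM with EVI1, against 28.6, 29.3 and 23.1 FPKM in control (log2 fold change 0.30, SE 0.10, adjusted p = 0.0425). RHEB (chromosome 7 from 151466012 to 151520120), the direct activator of mTORC1, had 77.0, 62.1 and 72.6 FPKM with EVI1, against 107, 96.0 and 97.4 FPKM in control. None of the 3 genes overlapped between the groups, and RHEB showed the largest change of them (log2 fold change -0.50, SE 0.09, adjusted p = 0.00227). TSC2 lost its call without EVI1 replicate 2 or 3 or control replicate 1 or 3 (adjusted p from 0.0574 to 0.12), while TSC1 and RHEB kept theirs with any 1 library left out. RHEB has processed pseudogenes, listed at up to 0.641 FPKM, with which its counts could be split.

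The promoters of TSC1, TSC2, MAPKAP1 and PIK3R2 are shown because these are the 4 called genes in which an ETS-type core was found, so that all 4 hold it follows from the choice. The first zinc finger domain of EVI1 is known to bind GATA-like sequences and the second ETS-like sequences. Each is given as the 250 bases before the start of transcription in RefSeq, 5′ to 3′ on the strand of the gene, on GRCh38.p14, with matches to the ETS-type core CCGGAAG in capitals, written CTTCCGG where it lies on the other strand. GENCODE 29 places the start of PIK3R2 at 18153118 and that of MAPKAP1 at 125707234, each inside the window shown, so both starts are uncertain. The marked match of MAPKAP1 spans that position.
TSC1 (chr9:132944617-132944866, minus strand): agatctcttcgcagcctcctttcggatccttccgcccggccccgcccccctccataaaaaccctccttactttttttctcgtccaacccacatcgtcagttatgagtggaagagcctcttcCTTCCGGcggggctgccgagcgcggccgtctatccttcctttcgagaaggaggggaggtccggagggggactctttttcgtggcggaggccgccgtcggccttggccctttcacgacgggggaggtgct
TSC2 (chr16:2047735-2047984, plus strand): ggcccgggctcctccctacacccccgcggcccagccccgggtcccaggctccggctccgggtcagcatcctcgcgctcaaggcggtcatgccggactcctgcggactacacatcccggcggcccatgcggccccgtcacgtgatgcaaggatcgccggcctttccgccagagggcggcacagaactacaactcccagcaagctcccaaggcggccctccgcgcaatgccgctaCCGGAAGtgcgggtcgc
MAPKAP1 (chr9:125707209-125707458, minus strand): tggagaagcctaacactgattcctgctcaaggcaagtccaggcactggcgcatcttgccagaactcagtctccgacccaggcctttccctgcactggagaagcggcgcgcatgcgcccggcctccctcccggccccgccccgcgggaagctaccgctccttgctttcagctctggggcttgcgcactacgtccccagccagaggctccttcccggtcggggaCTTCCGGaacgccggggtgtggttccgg
PIK3R2 (chr19:18152913-18153162, plus strand): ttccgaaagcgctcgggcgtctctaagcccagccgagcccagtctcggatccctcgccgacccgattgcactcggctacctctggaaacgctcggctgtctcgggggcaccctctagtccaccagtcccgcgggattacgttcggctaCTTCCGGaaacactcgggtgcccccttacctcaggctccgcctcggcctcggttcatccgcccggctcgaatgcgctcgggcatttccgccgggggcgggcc

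Of the 36 genes, 31 had a promoter in that table, 51 promoters in all, since some genes have several starts, and TSC2 is shown at the first of its 2. CCGGAAG on either strand was found in 7 of the 51 promoters (13.7%), those of MAPKAP1, PIK3CA, PIK3R2, PIK3R5, TSC1 and TSC2, against 8.52% of all 35116 promoters of the same length. The GATA-type core AGATAA on either strand was found in 3 of the 51 (5.88%), those of INPP4B, PIK3R1 and PIK3R3, against 9.17% of all. None of the 4 printed promoters held AGATAA. The genes with CCGGAAG rose (TSC1, TSC2), fell (PIK3R2, MAPKAP1) or were not called (PIK3CA) in K562, and PIK3R5 was not tested. The matches describe letters in these windows only.

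Among the substrates of AKT and mTORC1, GSK3A and RPS6KB2 fell, GSK3B and EIF4EBP1 rose and RPS6KB1 was not called, and differences within a pair of paralogs were not tested. GSK3A (chromosome 19 from 42230186 to 42242625), a kinase that AKT inactivates, had 47.9, 54.2 and 51.1 FPKM with EVI1, against 69.2, 69.9 and 57.7 FPKM in control (log2 fold change -0.35, SE 0.09, adjusted p = 0.0127). GSK3B, its close relative, had 15.3, 16.3 and 14.6 FPKM with EVI1, against 12.9, 12.9 and 13.6 FPKM in control (log2 fold change 0.21, SE 0.08, adjusted p = 0.0499). Neither overlapped, and GSK3A made up 76.8% ± 1.05 of the summed FPKM of the pair with EVI1 and 83.2% ± 1.96 in control. GSK3A lost its call without control replicate 1 (adjusted p = 0.0549), and GSK3B lost its call without any 1 of the 6 libraries (0.0519 to 0.14).

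RPS6KB2, the second S6 kinase, had 43.7, 49.1 and 43.5 FPKM with EVI1, against 65.0, 65.4 and 61.0 FPKM in control, without overlap (log2 fold change -0.48, SE 0.08, adjusted p = 9.4e-04). RPS6KB1, the better studied S6 kinase, had 29.7, 25.7 and 25.1 FPKM with EVI1 and 26.5, 30.0 and 25.7 FPKM in control, which overlapped (log2 fold change -0.03, SE 0.09, adjusted p = 0.808). The summed FPKM of both S6 kinases was 72.3 ± 3.26 with EVI1 and 91.2 ± 4.35 in control, of which RPS6KB2 made up 62.8% ± 3.07 with EVI1 and 70.0% ± 1.28 in control. EIF4EBP1 (4E-BP1), which blocks cap-dependent translation until mTORC1 phosphorylates it, had 129, 161 and 134 FPKM with EVI1, against 98.3, 107 and 99.6 FPKM in control. Its groups did not overlap (log2 fold change 0.47, SE 0.09, adjusted p = 0.00336), and it had the highest mean level of the 36 genes in both groups, next to RHEB at 100 ± 5.92 FPKM in control and to AKT1 at 113 ± 18.2 FPKM with EVI1.

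Under the label MOLM14 the same comparison gave other directions for many of the 15 genes with usable names. The phosphatases INPP4B and PHLPP1 and the catalytic gene PIK3CG fell, and PIK3R2, MAPKAP1 and GSK3A rose, while 9 genes did not pass the threshold. These 6 calls were 40.0% of the genes tested, against 57.3% of all 3768 genes tested in rows with usable names, of which 30.4% were called higher and 26.9% lower. The groups did not overlap for 8 of the 15 genes (53.3%), against 65.2% of all. The median log2 fold change was 0.04 for the 15 genes and 0.02 for all genes. INPP4B passed the filter only through the control libraries. In these libraries the 7 usable genes of a monocytic list summed to between 81.2 and 83.2 FPKM with EVI1 and between 182.1 and 192.6 FPKM in control, and the 4 usable genes of the erythroid list to between 500.5 and 525.7 FPKM with EVI1 and between 323.0 and 343.2 FPKM in control. Their part in the changes below was not tested.

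PHLPP1 had 5.09, 4.30 and 5.61 FPKM in the EVI1 libraries labelled MOLM14, against 7.78, 7.63 and 7.88 FPKM in their controls (log2 fold change -0.55, SE 0.10, adjusted p = 0.00255). INPP4B had 0.576, 0.835 and 0.421 FPKM with EVI1, against 1.57, 2.00 and 1.30 FPKM in control (log2 fold change -0.70, SE 0.16, adjusted p = 0.00708), and -1.30 with a pseudocount of 0.1. PIK3CG had 13.7, 15.1 and 12.4 FPKM with EVI1, against 22.2, 22.1 and 21.1 FPKM in control (log2 fold change -0.63, SE 0.08, adjusted p = 4.7e-04). Each of these 3 genes lay below control in every EVI1 library. GSK3A had 45.7, 46.4 and 45.9 FPKM with EVI1, against 29.6, 32.4 and 30.6 FPKM in control (log2 fold change 0.56, SE 0.06, adjusted p = 1.5e-04). MAPKAP1 had 62.2, 66.9 and 56.9 FPKM with EVI1, against 43.6, 48.4 and 35.8 FPKM in control (log2 fold change 0.54, SE 0.11, adjusted p = 0.00498). PIK3R2 had 22.0, 26.1 and 22.4 FPKM with EVI1, against 16.6, 20.1 and 18.6 FPKM in control (log2 fold change 0.33, SE 0.09, adjusted p = 0.019). These 3 genes lay above control in every EVI1 library, and the call of PIK3R2 was lost without EVI1 replicate 2 (adjusted p = 0.0552) or control replicate 1 (adjusted p = 0.0553).

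Among the genes that were not called, RHEB had 127, 123 and 123 FPKM in the EVI1 libraries labelled MOLM14, against 116, 116 and 106 FPKM in their controls. It lay above control in every EVI1 library but just missed the threshold (log2 fold change 0.14, SE 0.05, adjusted p = 0.0524). PIK3CB had 61.6, 75.8 and 68.7 FPKM with EVI1 and 77.8, 72.2 and 78.1 FPKM in control, and overlapped (log2 fold change -0.15, SE 0.08, adjusted p = 0.154). Without EVI1 replicate 2 it was called lower (adjusted p = 0.0419). PIK3CA had the largest standard error of the 15 genes, with 13.3, 23.1 and 11.9 FPKM with EVI1 and 30.6, 15.9 and 15.7 FPKM in control (log2 fold change -0.34, SE 0.31, adjusted p = 0.38). PHLPP2 stood at 2.79 ± 0.157 FPKM with EVI1 and 2.36 ± 0.332 FPKM in control, without overlap (log2 fold change 0.18, SE 0.11, adjusted p = 0.224). With quantile normalization PHLPP2 was called higher (log2 fold change 0.32, adjusted p = 0.0376). AKT2, TSC2, GSK3B, RPS6KB1 and PIK3R3 overlapped, with log2 fold changes between -0.09 for PIK3R3 and 0.09 for AKT2 and RPS6KB1. PHLPP1 made up 64.0% ± 4.05 of the PHLPP pair with EVI1 and 76.7% ± 2.54 in control, and GSK3A made up 75.9% ± 0.898 of the GSK3 pair with EVI1 and 68.5% ± 1.63 in control.

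The difference between the EVI1 effects under both labels was tested in 1 limma fit over all 12 libraries. It was called for 8 of the 15 genes (53.3%), against 64.9% of the 3697 genes tested, of which 30.8% were higher and 34.1% lower in K562. The effect in K562 was higher than under the label MOLM14 for PHLPP1 by 1.23 log2 units (SE 0.17, adjusted p = 1.5e-05) and for PIK3CB by 0.62 (SE 0.10, adjusted p = 1.1e-04). INPP4B, also among the 8, had a difference of 1.60, and of 3.72 with a pseudocount of 0.1. It passed the filter through the EVI1 libraries in K562 and through the control libraries under the label MOLM14, so the filter itself fixed opposite directions and its difference is given without a test. PIK3CG fell under both labels, less so in K562, with a difference of 0.30 (SE 0.11, adjusted p = 0.0228). The effect was lower in K562 for GSK3A by a difference of -0.91 (SE 0.11, adjusted p = 5.6e-06), PIK3R2 of -0.82 (SE 0.15, adjusted p = 2.1e-04), MAPKAP1 of -0.80 (SE 0.14, adjusted p = 1.9e-04) and RHEB of -0.64 (SE 0.11, adjusted p = 1.3e-04). INPP4B and PHLPP1 rose in K562 and fell under the label MOLM14, and GSK3A, PIK3R2 and MAPKAP1 fell in K562 and rose under that label. The effect on MECOM itself differed by 0.04 (SE 0.14, adjusted p = 0.807). The difference for PIK3CG lost its call without K562 control replicate 1 (adjusted p = 0.0523) or without EVI1 replicate 3 labelled MOLM14 (adjusted p = 0.0725). AKT2, with a difference of -0.26 (adjusted p = 0.0883), gained a call without K562 EVI1 replicate 2, K562 control replicate 3 or control replicate 3 labelled MOLM14 (0.0233 to 0.0358), and PIK3R3 gained one without control replicate 2 labelled MOLM14 (0.0359). With quantile normalization the difference was also called for PIK3R3 (-0.51, adjusted p = 0.00747) and for PHLPP2 (-0.39, adjusted p = 0.0186).

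**Figure D4:**
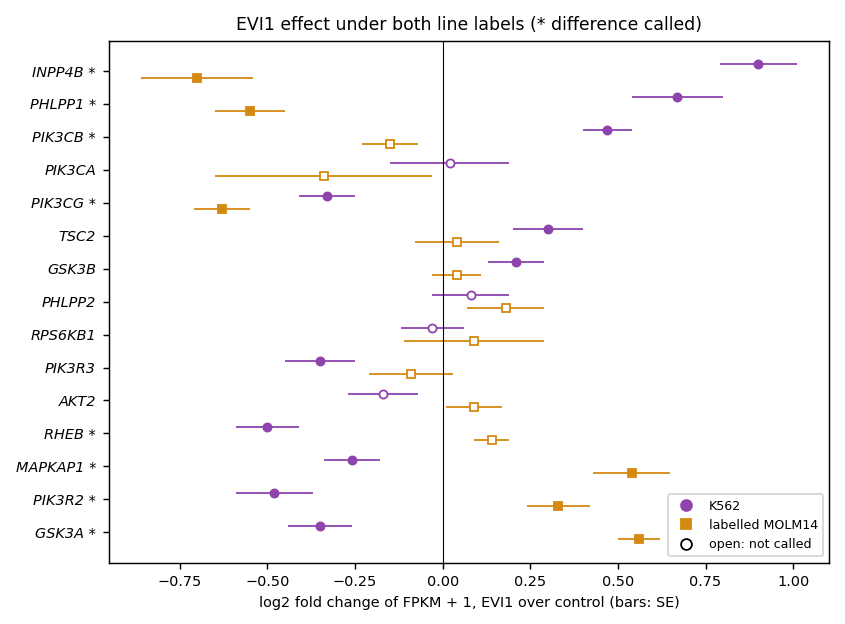
Log2 fold change of FPKM + 1, EVI1 over control, for the 15 genes with usable names, in K562 (purple circles) and under the label MOLM14 (orange squares), with bars for the standard error; open symbols were not called and an asterisk marks genes whose effects differed. INPP4B, PHLPP1 and PIK3CB lie further right in K562, while GSK3A, PIK3R2, MAPKAP1 and RHEB lie further left.

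The wider pathway was followed with 7 lists of genes around these 36, none of them a member. Their counts stand against 51.9% of all genes called in K562, 28.2% higher and 23.7% lower. The list of class II and III PI3Ks and further phosphoinositide phosphatases also holds PIK3AP1 and PIK3IP1. In K562 it gave 7 higher and 1 lower of 14 tested, with a median log2 fold change of 0.29. PIK3C3, the class III catalytic subunit, had 49.6, 52.4 and 48.3 FPKM with EVI1, against 30.2, 30.4 and 32.7 FPKM in control (log2 fold change 0.67, SE 0.07, adjusted p = 1.2e-04), whereas its partner PIK3R4 was not called, at -0.16. PIK3C2B, a class II PI3K, had 5.83, 7.47 and 4.89 FPKM with EVI1, against 0.894, 0.866 and 0.679 FPKM in control, and passed the filter in EVI1 libraries only (log2 fold change 1.95, SE 0.14, adjusted p = 1.7e-05). The call of PIK3C2B was thus bound to the filter. INPP5K, a 5-phosphatase, and PIK3AP1, an adaptor for PI3K in B cells, also rose, with log2 fold changes of 0.95 and 0.88. PIK3C3 moved the other way under the label MOLM14, with 23.1, 24.5 and 24.8 FPKM with EVI1, against 32.1, 31.9 and 30.7 FPKM in control (log2 fold change -0.37, SE 0.06, adjusted p = 0.00116).

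Of the AKT and PDK1 regulators, 6 were higher and 4 lower of 16 tested in K562, with a median of 0.00. TRIB3, a pseudokinase reported to bind and restrain AKT, had 50.0, 80.6 and 48.9 FPKM with EVI1, against 24.0, 25.8 and 23.2 FPKM in control (log2 fold change 1.23, SE 0.17, adjusted p = 5.7e-04). TRIB3 under the label MOLM14 had 16.5, 18.7 and 17.8 FPKM with EVI1, against 88.8, 99.4 and 87.1 FPKM in control, or -2.31 as a log2 fold change (SE 0.07, adjusted p = 1.6e-06). TRIB2, a relative, and SGK1, a kinase close to AKT, rose in K562 by 0.91 and 0.68, and MTCP1, an AKT coactivator, had a log2 fold change of -0.70. The adjusted p of SGK1 and MTCP1 was 0.0156 and 0.008, and 0.0829 and 0.0517 with no filter. The insulin and IGF ligands, binding proteins and adaptors gave 4 higher and 5 lower of 15. The binding protein IGFBP4 had 72.0, 76.3 and 76.6 FPKM with EVI1, against 33.3, 32.2 and 30.8 FPKM in control (log2 fold change 1.20, SE 0.07, adjusted p = 4.4e-06). The ligand IGF1 had 2.96, 2.55 and 2.57 FPKM with EVI1, against 6.62, 7.54 and 5.30 FPKM in control (log2 fold change -1.01, SE 0.13, adjusted p = 3.1e-04). IGFBP2 and INSRR reached the filter in K562 EVI1 libraries only, so their calls were bound to it. IGF1 and the adaptor GAB2 fell under the label MOLM14, with log2 fold changes of -1.71 and -1.66.

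The nutrient-sensing genes of mTORC1 at the lysosome gave 6 higher and 7 lower of 26 tested in K562 (50.0%), with a median of -0.12. SESN2, a leucine sensor that restrains mTORC1, had 45.9, 67.0 and 41.6 FPKM with EVI1, against 14.0, 15.9 and 15.6 FPKM in control (log2 fold change 1.67, SE 0.16, adjusted p = 6.9e-05). NPRL3 and DEPDC5, subunits of an inhibitory complex, rose by 0.46 and 0.51, and MIOS, a subunit of the complex that opposes it, had a log2 fold change of -0.73. The call of DEPDC5 (adjusted p = 0.0252) was lost without control replicate 2 or 3, and its adjusted p reached 0.0982 over the alternatives. Among mTOR accessory subunits and stress inhibitors 7 were higher and 4 lower of 15. DDIT4 (REDD1), which acts through the TSC complex to inhibit mTORC1, had 861, 1300 and 826 FPKM with EVI1, against 46.3, 57.6 and 76.2 FPKM in control (log2 fold change 4.03, SE 0.21, adjusted p = 2.9e-06). TBC1D7, the third subunit of the TSC complex, had 65.5, 74.0 and 70.1 FPKM with EVI1, against 36.6, 37.1 and 40.6 FPKM in control (log2 fold change 0.86, SE 0.08, adjusted p = 4.8e-05), so that each of the 3 TSC subunits was higher. TTI1, which helps assemble mTOR, fell in K562 (log2 fold change -0.63, SE 0.07, adjusted p = 1.7e-04) and rose under the label MOLM14 (log2 fold change 0.40, SE 0.06, adjusted p = 8.5e-04).

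The translation outputs gave 6 higher and 6 lower of 20 in K562, with a median of 0.00. EIF4EBP2 and EIF4EBP3, relatives of 4E-BP1, fell, in contrast to EIF4EBP1. The call of EIF4EBP3 (log2 fold change -0.58, adjusted p = 0.0451) was lost without any 1 EVI1 library or control replicate 2 or 3, and its adjusted p reached 0.167 over the alternatives. EIF4EBP2 had 23.6, 20.3 and 22.3 FPKM with EVI1, against 32.0, 29.7 and 33.5 FPKM in control (log2 fold change -0.51, SE 0.08, adjusted p = 0.00133). TFEB, the lysosomal transcription factor that mTORC1 holds in the cytoplasm, had 4.63, 5.23 and 5.28 FPKM with EVI1, against 1.48, 1.57 and 1.34 FPKM in control (log2 fold change 1.29, SE 0.10, adjusted p = 2.2e-05). The FOXO factors, which AKT excludes from the nucleus, and genes listed as FOXO targets gave 11 higher and 3 lower of 17 in K562. These were 82.4%, against 51.9% of all genes, with a median log2 fold change of 0.68 against 0.01 for all genes. The list holds PCK2 and G6PC3 in place of their paralogs PCK1 and G6PC, which are the textbook targets. PCK2, PINK1, TXNIP and GADD45A led the list, with log2 fold changes of 1.94, 1.70, 1.48 and 1.22. Under the label MOLM14 the same list gave 1 higher and 7 lower of 8, against 57.3% of all genes called, with a median of -0.77. The effects of all 8 differed between the labels, 7 of them higher in K562, against 64.9% of all genes, 30.8% higher and 34.1% lower. PCK2 had 16.1, 16.1 and 13.5 FPKM with EVI1, against 66.9, 72.2 and 68.9 FPKM in control under that label (log2 fold change -2.12, SE 0.08, adjusted p = 3.1e-06). In K562, 2 of the 17 FOXO genes, 2 of the 14 genes of the PI3K and phosphatase list and 2 of the 15 insulin and IGF genes passed the filter in 1 group only. Any calls of these genes were bound to the filter, and they stand in the counts above. The other 6 lists, in the order above, gave under the label MOLM14 0 higher and 2 lower of 7, 6 and 3 of 10, 0 and 3 of 4, 2 and 1 of 13, 2 and 3 of 5, and 5 and 4 of 9, where 30.4% of all genes were higher and 26.9% lower. Of the nutrient-sensing genes 23.1% were called and of the accessory subunits and the translation outputs all that were tested, against 57.3% of all genes. Several of the genes named here, among them DDIT4, SESN2, TRIB3, PCK2 and GADD45A, are known targets of amino acid and other stress responses.

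**Figure D5:**
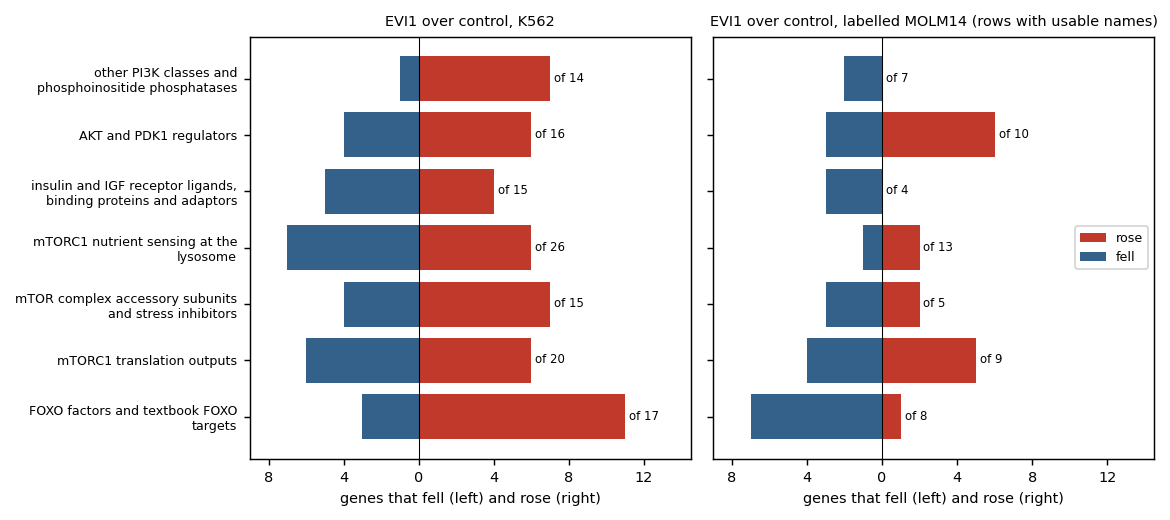
Number of genes that rose (red, to the right) and fell (blue, to the left) with EVI1 in each of 7 lists of genes around the pathway, in K562 on the left and under the label MOLM14 on the right, with the number tested beside each bar. The FOXO list gave 11 higher and 3 lower of 17 in K562 and 1 higher and 7 lower of 8 under the label MOLM14.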

How the data were processed

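Total RNA of 12 libraries, 3 in each of 4 groups named by the sample titles, was prepared with a TruSeq kit, per the labels' protocols. The extraction text in the labels speaks of mouse small intestine although the organism is given as human. The authors deposited FPKM for each gene. STAR, Cuffnorm and Cufflinks and the builds hg38 and GRCh38 are named in the submitters' processing notes, without versions. Cuffnorm scales libraries to each other, and strand use is not given in the sources used here, so genes on opposite strands cannot be told apart.

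A row with a blank value was left out. Row order was checked between the labels: control means followed each other in the first 5510 rows (Pearson r across genes 0.973), but not in the next 500 (0.0404, and 0.977 at an offset of 2 rows). Both labels appear to come from separate Cuffnorm runs, so levels were not tested across them.

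Values were analysed as log2(FPKM + 1) in R 4.3.3 with limma 3.58.1 (moderated test with a mean-variance trend, two-sided), on rows where 3 or more libraries reached 1 FPKM. Each label had its own fit of 6 libraries, and the difference of effects was fitted over all 12 on rows that passed under both labels. Benjamini-Hochberg adjustment ran over all rows of a fit, and called means an adjusted p under 0.05. The fits were tested on simulated data. Tables were made with pandas 2.3.3 and NumPy 2.4.6 in Python 3.11.15. K562 depth was estimated from low FPKM values, 95.6% to 96.4% of which lay within 0.05 log2 units of a whole number of fragments. Counting intervals are not given, since FPKM do not state the fragments of each gene.

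The 36 genes and the lists around them were chosen with earlier results of these data known. All 36 genes are described. Of each list, up to 4 called genes with the largest fold change and no overlap in K562, and up to 2 under the label MOLM14, could be named. Gene coordinates are those of GENCODE 29 where the identifier's version matched. Alternatives were a pseudocount of 0.1, no filter, median-ratio scaling, quantile normalization, no variance trend, the replicate number as a block, and leaving out each library. A fit of the libraries labelled MOLM14 on rows with usable names alone was added after seeing the data.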

Additional observations from a re-analysis of the deposited data

Results flagged for a closer look

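The limma test of the difference itself called 8 of the 15 genes, but for INPP4B, 1 of the 8, the call is not a test. Each value is the log2 fold change in K562 minus that under the label MOLM14. It was 1.60 for INPP4B, whose opposite directions were fixed by the filter on low values, 1.23 for PHLPP1, 0.62 for PIK3CB and 0.30 for PIK3CG. It was -0.64 for RHEB, -0.80 for MAPKAP1, -0.82 for PIK3R2 and -0.91 for GSK3A. Over all genes tested, 64.9% differed between the labels. The libraries labelled MOLM14 held GATA1 and almost no HOXA9 or MPO. They also held monocytic genes such as TYROBP, SPI1 and LYZ, which were found in K562 libraries too. LYZ stood between 80.1 and 82.3 FPKM in the controls labelled MOLM14 and between 20.3 and 23.1 FPKM in K562 control. The differences therefore compare 2 sets of libraries, and what line the second set came from was not tested.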

How the results depend on the processing

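In K562, 20 of the 36 genes were called, 11 higher and 9 lower. Leaving out each library in turn gave between 11 and 16 calls, between 6 and 9 higher and between 4 and 9 lower, and with no filter on low values 7 were called higher. PIK3CB, PIK3CD, PIK3CG, PIK3R2, AKT1, PHLPP1, TSC1, RHEB, RPS6KB2 and EIF4EBP1 kept their calls with any 1 library left out. INPP5D and INPP4B could be tested in 3 of the 6 such fits, and their calls there were bound to the filter. Over the other alternatives 13 of the 20 calls were kept, and AKT1 (with no filter, adjusted p = 0.0553), RPTOR, RICTOR, MAPKAP1, AKT1S1, TSC2 and GSK3B were lost in at least 1 (0.0504 to 0.131). Under the label MOLM14, 4 of 6 calls were kept in every alternative, and for the difference of effects 6 of 8. INPP4B could be tested in only 3 of 6 and 6 of 12 fits with 1 library left out. Its calls in those were bound to the filter. On rows with usable names alone, RHEB was called under the label MOLM14 (adjusted p = 0.0469). The causes were not tested. Signs turned only for genes that were not called. With quantile normalization these were, in K562, PIK3CA (-0.08), IGF1R (-0.05), PHLPP2 (-0.12) and MTOR (-0.03), and PIK3R3 (0.02) under the label MOLM14. Over the fits with 1 library left out, values ran in K562 from -0.13 to 0.16 for PIK3CA, -0.09 to 0.01 for PIK3R1, -0.06 to 0.04 for MTOR, -0.14 to 0.01 for MLST8 and -0.10 to 0.03 for RPS6KB1. Under the label MOLM14 they ran from -0.16 to 0.02 for PIK3R3, -0.04 to 0.14 for TSC2, 0.00 to 0.08 for GSK3B and -0.11 to 0.31 for RPS6KB1, and for the difference from -0.34 to 0.08 for RPS6KB1. Whether replicate numbers pair the libraries is not stated. Deviations of same-numbered libraries correlated at -0.215, -0.0518 and 0.126 in K562 and at -0.0534 to -0.00874 under the label MOLM14. Only K562 replicate 3 matched its own number best, and correlations over so few libraries cannot settle the question. With the replicate number as a block, 16 of the 36 genes were called in K562, 6 under the label MOLM14 and 8 for the difference, and 7045 of all genes in K562 in place of 7163.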
